A study of Homo sapiens with 9 samples.

Results

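The 32 genes described here belong to the lipid synthesis programme of the sterol regulatory element-binding proteins (SREBPs), and were followed in the human multiple myeloma line MM.1S, exposed to epigallocatechin gallate (EGCG). The genes were taken from a list of symbols with 1 Ensembl gene ID each, so 32 of the 60675 IDs in the deposited count table are covered, and the rule uses no measured value. They fall into 5 regulators, 18 genes of the sterol branch and 9 genes of the fatty acid branch. EGCG is the main catechin of green tea, and the study asked, per its design text, how it promotes the death of myeloma cells. MM.1S cells were kept in serum-containing medium and received 0 µM EGCG (the control), 40 µM EGCG or 80 µM EGCG for 24 h, with 3 RNA-seq libraries at each dose. No genetic change or further agent is named for any group, and all cells come from the same line.

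SREBPs are made as precursors in the membrane of the endoplasmic reticulum, where SCAP escorts them and the INSIG proteins hold the complex back when sterols are plentiful. When sterols fall, the complex moves to the Golgi, proteases free the factor's amino-terminal part, and that part enters the nucleus and switches on genes of lipid synthesis. SREBF2 encodes the form that mainly drives cholesterol synthesis, and SREBF1 encodes the forms that mainly drive fatty acid synthesis and, in part, cholesterol synthesis. Lipid synthesis supplies membrane to dividing cells and to the enlarged endoplasmic reticulum of antibody-secreting plasma cells, the cell type from which myeloma arises.

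At 80 µM most of the fatty acid branch fell, and part of the sterol branch fell with it. SCD, the desaturase that makes oleate, was 3.08-fold lower than in the control (log2 fold change -1.62 ± 0.11 SE, 3 libraries each), and FASN, the fatty acid synthase, was 2.29-fold lower. SREBF1 was 2.94-fold lower, whereas the log2 fold change of SREBF2 was -0.00 ± 0.11. HMGCS1, which makes the HMG-CoA that enters the mevalonate pathway, was the single member that rose, by 1.29-fold.

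Members were tested among 15982 genes with edgeR's quasi-likelihood test, and those with an adjusted p (Benjamini-Hochberg) under 0.05 are called changed. All 32 members passed the filter on low counts. At 80 µM against control 19 members were called, 1 higher and 18 lower, where 34.9% of all genes tested were called, 17.4% higher and 17.5% lower. At 40 µM against control 4 members were called, 1 higher and 3 lower, where 2.3% of all genes tested were called, 1.49% higher and 0.813% lower. Between 80 µM and 40 µM 13 members were called, all of them lower, where 23% of all genes tested were called, 10.9% higher and 12.1% lower. The 4 calls at 40 µM became 1 without control library 1 or 3, 40 µM library 3 or any 1 80 µM library, and 2 without 40 µM library 2. The 19 at 80 µM became 11 without 80 µM library 2 and 12 without 80 µM library 3, and the 13 between the doses became 8 without either. The labels do not say that the libraries of a dose came from separate cultures. Each test therefore sets a dose difference against the spread between these libraries, which may be technical. In bulk RNA a smaller amount of a transcript in each cell and a smaller share of cells that hold it cannot be told apart.

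Total counts per library ran from 12674490 to 16427343, and levels are given as CPM, a gene's counts as a share of the library total after scaling with TMM factors. The libraries separated by dose along the first principal component, which held 43.5% of the variance, and 40 µM library 2 stood apart from the other libraries on the second, which held 13.7%. Without that library, 2 members were called at 40 µM, 17 at 80 µM against control and 10 between the doses. All 10 of the plasma cell and myeloma markers were detected, with summed levels of 6832 to 7051 CPM in the control, 6258 to 6445 CPM at 40 µM and 5970 to 6297 CPM at 80 µM. The 5 adipocyte and hepatocyte markers summed to at most 0.965 CPM in any library, with FABP4 at 0. Markers of T and NK cells summed to 5.43 to 7.51 CPM in the control, 3.35 to 5.14 CPM at 40 µM and 3.59 to 4.02 CPM at 80 µM. Of that list CD3D and NKG7 were at 0, and CD3E, CD2 and GNLY were not. Markers of stromal cells (at most 0.917 CPM, COL1A2 and LUM at 0) and monocytes (at most 0.889 CPM) were low in all libraries. The part of these marker levels in the results was not tested.

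**Figure D1:**
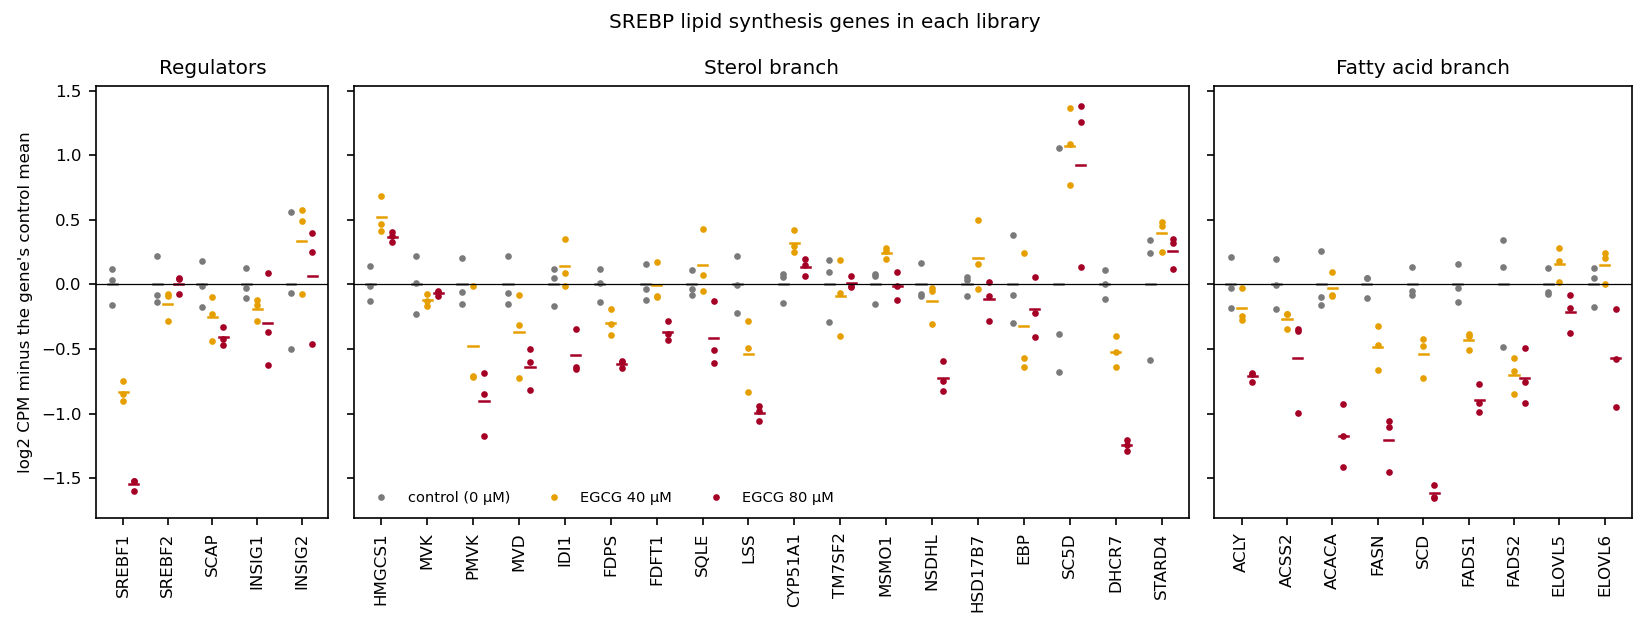
Level of each of the 32 members in each of the 9 libraries, as log2 CPM minus the gene's mean in the 3 control libraries (vertical axis), by role; grey points are control, orange EGCG 40 µM and dark red EGCG 80 µM, and short lines are group means. At 80 µM all libraries of SREBF1, SCD, DHCR7 and FASN lie below every control library, while the libraries of SREBF2 and MVK lie around the control values.

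The promoters are shown first because the members are known for a common control from their start sites. The RefSeq promoter table (GRCh38.p14, 250 bases before to 50 after each start) held 29 of the 32 members, and FDFT1, SQLE and FASN were not matched. SREBPs bind sterol regulatory elements, usually beside a CCAAT box that binds the factor NF-Y, or a GC box that binds SP1. The stretches below are printed 5′ to 3′ on the gene's own strand, with matches to TCACNCCAC or TCACNNCA (sterol regulatory element) and to CCAAT (reading ATTGG on the other strand) in capitals, and they stop before any exon of the gene in GENCODE 29. SREBF2 and SREBF1 are given because SREBF1 fell and SREBF2 was not called, MSMO1 and HMGCS1 as sterol genes that were not called lower, DHCR7 as the sterol gene that fell most, and SCD and ACLY as fatty acid genes that fell.
SREBF2 (chr22:41832957-41833018, + strand): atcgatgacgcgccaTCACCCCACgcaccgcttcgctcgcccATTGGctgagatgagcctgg
SREBF1 (chr17:17837003-17837236, − strand): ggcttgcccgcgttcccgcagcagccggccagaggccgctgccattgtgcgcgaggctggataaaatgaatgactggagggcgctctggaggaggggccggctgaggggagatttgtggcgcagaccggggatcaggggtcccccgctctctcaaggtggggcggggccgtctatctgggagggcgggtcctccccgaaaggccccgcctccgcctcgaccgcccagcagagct
MSMO1 (chr4:165327469-165327622, + strand): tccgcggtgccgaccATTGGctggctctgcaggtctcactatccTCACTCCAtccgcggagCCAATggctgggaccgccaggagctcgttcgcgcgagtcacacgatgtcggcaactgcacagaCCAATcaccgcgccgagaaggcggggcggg
HMGCS1 (chr5:43313513-43313582, − strand): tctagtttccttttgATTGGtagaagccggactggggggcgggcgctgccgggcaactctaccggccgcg
DHCR7 (chr11:71448436-71448502, − strand): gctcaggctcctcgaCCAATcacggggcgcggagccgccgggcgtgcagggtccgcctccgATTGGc
SCD (chr10:100346989-100347066, + strand): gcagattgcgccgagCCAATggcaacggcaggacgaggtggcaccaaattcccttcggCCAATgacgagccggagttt
ACLY (chr17:41919026-41919102, − strand): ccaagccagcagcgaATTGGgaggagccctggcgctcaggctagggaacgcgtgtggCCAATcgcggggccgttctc

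The printed stretches of DHCR7 and ACLY lie inside the genes' GENCODE bounds, and so not before the outermost GENCODE start. The SREBF1 stretch holds no match to these letters. HMGCS1 has a further CCAAT match beginning 100 bases before the start, and MSMO1 a further match beginning 34 bases before it. Both lie past the ends of the printed stretches. The SREBF2 stretch holds TCACNCCAC beginning 133 bases before the start and a CCAAT box on the other strand beginning 106 bases before it. SREBF2 was the 1 member of 29 whose window held TCACNCCAC, against 1.15% of the 27305 promoters in the table and 1.16% of those of genes tested. The looser TCACNNCA, which every TCACNCCAC match also meets, was found in 4 of 29 members (SREBF2, MSMO1, MVK and ACSS2). That share is 13.8%, against 12.6% of all promoters and 9.97% of those of genes tested. CCAAT was found in 19 of 29 members (65.5%), against 35.7% of all promoters and 36.8% of the 10652 promoters of genes tested. By role it was found in 13 of 16 sterol members, 4 of 8 fatty acid members and 2 of 5 regulators. GGGCGG was found in 89.7% of members, against 44.6% of all promoters and 69% of the promoters of genes tested. CACGTG was found in 17.2% of members, against 7.43% of all promoters and 10.3% of those of genes tested. Both strands were searched, a match is a description of letters and not a bound site, and a window without a match says nothing of elements elsewhere.

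**Figure D2:**
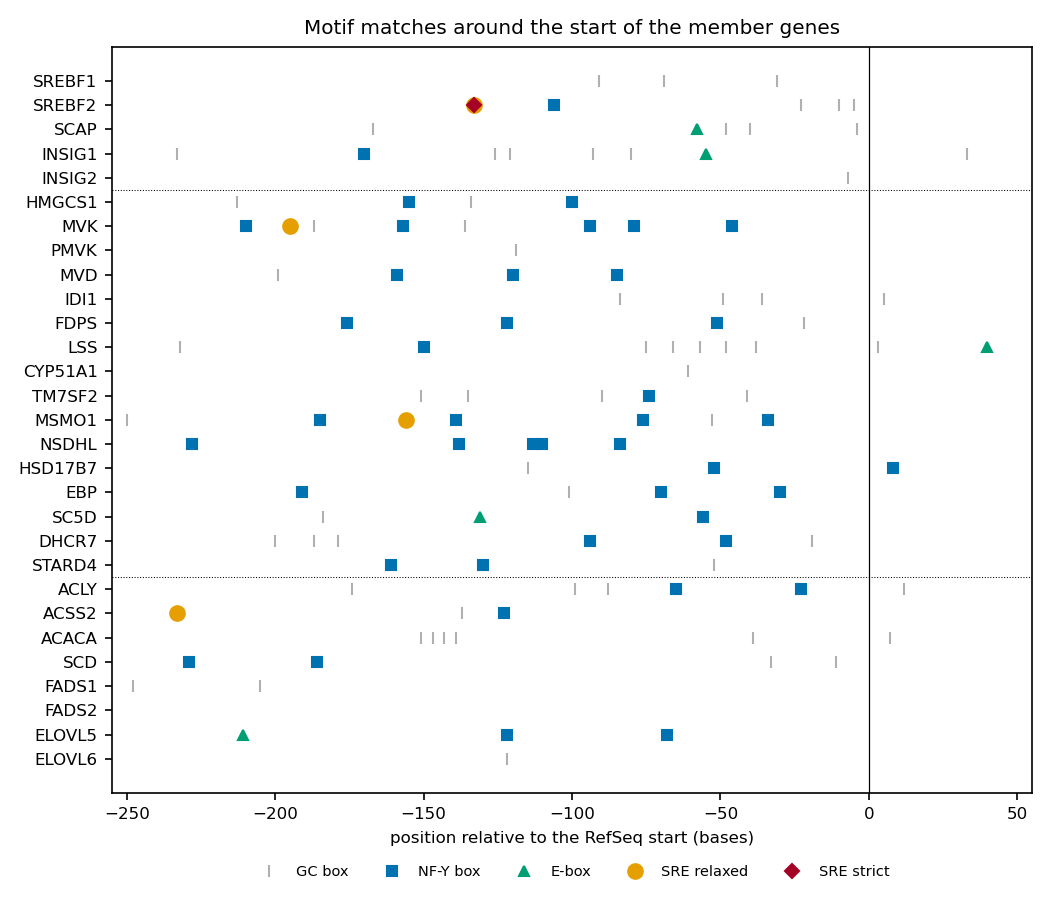
Position of motif matches (horizontal axis, bases relative to the RefSeq start at 0) in the promoter windows of the 29 members with an entry (vertical axis; dotted lines part regulators, sterol branch and fatty acid branch from top to bottom). Blue squares mark CCAAT (NF-Y box), grey ticks GGGCGG (GC box), green triangles CACGTG (E-box), orange circles TCACNNCA and the dark red diamond TCACNCCAC, which is in SREBF2. CCAAT matches stand in 13 of 16 sterol windows and 4 of 8 fatty acid windows.

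Among the regulators SREBF1 fell at both doses. SREBF1 (ENSG00000072310, chromosome 17, 17810399 to 17837002 on the reverse strand in GRCh38) had 99.5, 86.8 and 105 CPM in the control libraries, 57.5, 53.8 and 51.8 CPM at 40 µM and 33.6, 33.6 and 31.8 CPM at 80 µM. The 3 doses did not overlap, and each step down was larger than the spread within a dose. Its log2 fold change was -0.84 ± 0.11 at 40 µM (SE, edgeR adjusted p = 0.00341), -1.56 ± 0.11 at 80 µM (adjusted p = 7.79e-06) and -0.72 ± 0.11 between 80 µM and 40 µM (adjusted p = 0.00159). These calls held in all 16 alternative settings. SREBF1 shares 556 exon bases with RAI1 on the opposite strand, and with the strand setting of the counting not given in the sources used here, reads from that stretch cannot be assigned to either gene with certainty.

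SREBF2 (ENSG00000198911, chromosome 22, 41833079 to 41907308) had 382, 369 and 472 CPM in the control, 384, 333 and 379.8 CPM at 40 µM and 384, 420.1 and 418 CPM at 80 µM. The doses overlapped, and the highest value was in control library 3. At 80 µM the 95% interval of its log2 fold change ran from -0.25 to 0.25, and at 40 µM from -0.41 to 0.10, and neither was called (adjusted p = 0.999 and 0.472). Per gene length, in the authors' deposited FPKM, SREBF1 averaged 1.91 ± 0.0680 at 80 µM and 5.53 ± 0.400 in the control (SD, n = 3 each). SREBF2 averaged 31.3 ± 2.02 FPKM at 80 µM and 30.8 ± 2.69 FPKM in the control, so SREBF2 was the more abundant of the pair in both groups.

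SCAP, the escort protein of both factors, had 153, 138 and 176 CPM in the control, 145, 115 and 132 CPM at 40 µM and 112, 123 and 116 CPM at 80 µM. All 80 µM libraries lay below all control libraries, and 40 µM libraries overlapped both. Its log2 fold change at 80 µM was -0.41 ± 0.12 (adjusted p = 0.0239). That call was lost without control library 1 or 3, or without any 1 of the 80 µM libraries, with log2 fold changes of -0.44 to -0.33 and adjusted p of 0.0537 to 0.0808. INSIG1, an ER anchor of SCAP and itself a textbook SREBP target, had 116, 123 and 137 CPM in the control, 112, 115 and 103 CPM at 40 µM and 97.0, 81.3 and 133 CPM at 80 µM. Its 80 µM library 3 lay within the control range while the other 80 µM libraries lay below it, and INSIG1 was not called (log2 fold change -0.27 ± 0.16, adjusted p = 0.221). Without 80 µM library 3 it was called lower (log2 fold change -0.48, adjusted p = 0.0253). INSIG2, the second anchor, had 27.6, 17.8 and 13.2 CPM in the control, 17.7, 26.3 and 27.9 CPM at 40 µM and 22.2, 13.5 and 24.6 CPM at 80 µM. Its values overlapped at all doses and it was not called in any comparison.

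**Figure D3:**
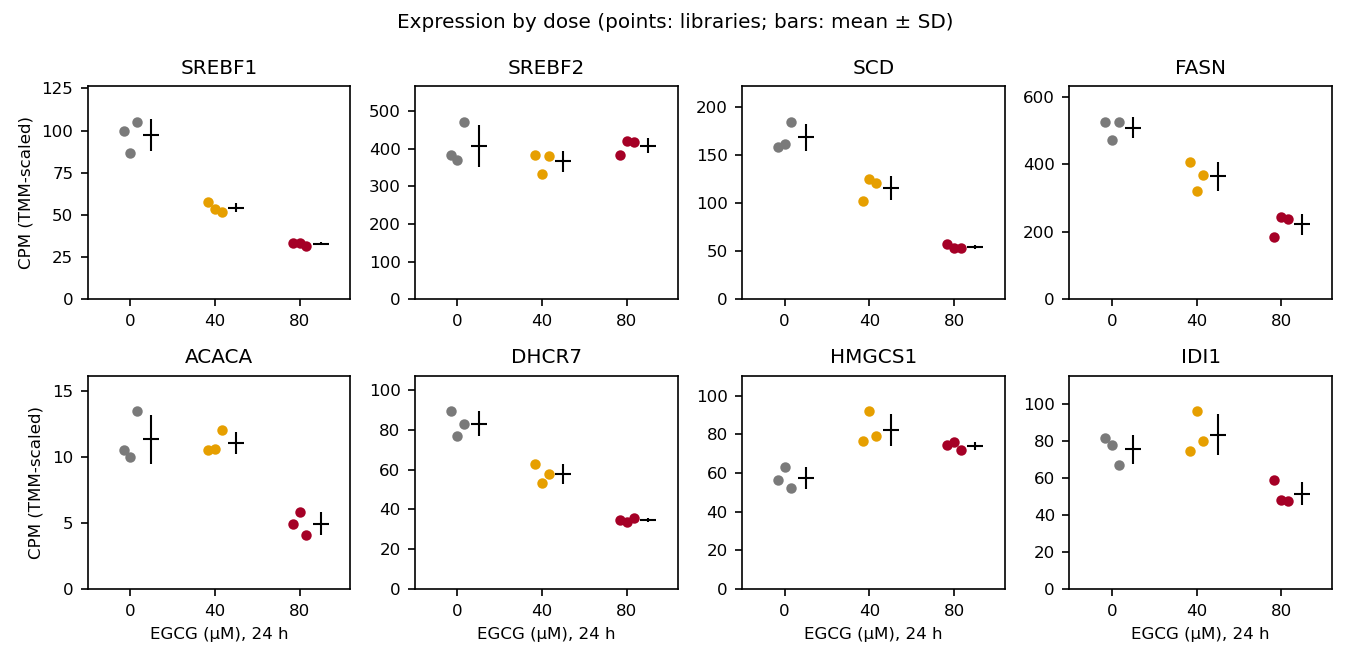
CPM of 8 members (vertical axes, linear from 0) against EGCG dose in µM after 24 h (horizontal axes); points are the 3 libraries of a dose and black bars their mean ± SD. SREBF1, SCD, FASN and DHCR7 step down at both doses, ACACA and IDI1 are lower at 80 µM than at 40 µM, SREBF2 overlaps at all doses, and HMGCS1 is higher at 40 and 80 µM than in the control.

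In the fatty acid branch 8 of 9 genes fell at 80 µM against control, where 17.5% of all genes tested were called lower, and none rose. The branch's median log2 fold change was -0.78, against -0.00 over all genes tested. The 9 genes summed to 577 ± 16.4 CPM at 80 µM, against 1116 ± 64.8 CPM in the control (SD, n = 3 each), which is 51.7% of the control sum. FASN, whose values are given below, held the largest part of both sums, so its fall weighs most in this share. The count of 8 was 5 without control library 2, without 40 µM library 3 and without 80 µM library 2 or 3. At 40 µM 1 of the 9 was called, lower, and the branch summed to 897 ± 43.5 CPM, which is 80.4% of the control sum.

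Acetyl-CoA supply is the first step of the branch and also feeds sterol synthesis. ACLY, which cleaves citrate into acetyl-CoA in the cytosol, had 198, 219 and 259 CPM in the control, 219, 185 and 189 CPM at 40 µM and 139, 133 and 138 CPM at 80 µM. The control and 40 µM overlapped, and all 80 µM libraries lay below both. Its log2 fold change was -0.72 ± 0.12 against control (adjusted p = 0.00105) and -0.53 ± 0.12 against 40 µM (adjusted p = 0.00949). ACSS2, which makes acetyl-CoA from acetate, fell by 0.55 on the log2 scale at 80 µM (adjusted p = 0.045), a call that was lost without any 1 control library, any 1 40 µM library, or 80 µM library 2 or 3, with log2 fold changes of -0.64 to -0.35 and adjusted p of 0.0503 to 0.16.

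ACACA, the acetyl-CoA carboxylase that commits acetyl-CoA to fatty acids, had 10.5, 10.0 and 13.5 CPM in the control, 10.6, 10.7 and 12.03 CPM at 40 µM and 4.91, 5.86 and 4.13 CPM at 80 µM. The 40 µM libraries lay within the control range and the 80 µM libraries lay below all others. Its log2 fold change was -0.03 ± 0.18 at 40 µM (adjusted p = 0.937) and -1.19 ± 0.18 at 80 µM (adjusted p = 0.000756). FASN (ENSG00000169710, chromosome 17, 82078333 to 82098332), which builds palmitate, had 526, 472 and 526 CPM in the control, 405, 319.9 and 367 CPM at 40 µM and 186, 244 and 236 CPM at 80 µM. The 3 doses did not overlap. The log2 fold change of FASN was -0.48 ± 0.13 at 40 µM, which was not called with edgeR (adjusted p = 0.0832) and was called with DESeq2 (adjusted p = 0.0223), and -1.19 ± 0.13 at 80 µM (edgeR adjusted p = 0.000104). In the authors' deposited FPKM, which is scaled by gene length, FASN was the second most abundant member in the control at 38.7 ± 2.24, and ACACA the second least abundant at 0.480 ± 0.0545 (SD, n = 3 each).

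SCD (ENSG00000099194, chromosome 10, 100347124 to 100364834), the desaturase whose promoter stretch above holds 2 CCAAT boxes, had 159, 162 and 185 CPM in the control, 102, 126 and 121 CPM at 40 µM and 57.3, 53.6 and 53.3 CPM at 80 µM. The doses did not overlap. On the log2 scale SCD changed by -0.54 ± 0.11 at 40 µM (adjusted p = 0.0337), -1.62 ± 0.11 at 80 µM (adjusted p = 7.14e-06) and -1.09 ± 0.11 between 80 µM and 40 µM (adjusted p = 0.000337). Both calls at 80 µM held in all 16 alternatives. The call at 40 µM was lost without any 1 control library, without 40 µM library 1 or 3, and without any 1 80 µM library, with log2 fold changes of -0.58 to -0.45 and adjusted p of 0.0576 to 0.0995.

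FADS1, the desaturase that acts late in making arachidonate, had 30.8, 28.6 and 35.2 CPM in the control, 24.0, 22.1 and 23.8 CPM at 40 µM and 18.4, 16.6 and 15.7 CPM at 80 µM. The doses did not overlap, and its log2 fold change at 80 µM was -0.90 ± 0.12 (adjusted p = 0.000412). FADS1 was not called at 40 µM against control (adjusted p = 0.096) and was called lower between the doses (adjusted p = 0.0231). FADS2, the desaturase that opens the same route, had 2.56, 4.02 and 4.67 CPM in the control, 1.96, 2.23 and 2.41 CPM at 40 µM and 1.86, 2.55 and 2.10 CPM at 80 µM. Both doses lay below the control and overlapped each other, and the log2 fold change at 80 µM was -0.78 ± 0.27 (adjusted p = 0.0431). The call for FADS2 was lost with DESeq2 (adjusted p = 0.0685), with limma-voom (adjusted p = 0.0627), and without control library 2 or 3, 40 µM library 3 or any 1 80 µM library (log2 fold changes -0.90 to -0.61, adjusted p 0.0595 to 0.13). FADS1 and FADS2 share 490 exon bases on opposite strands, and FADS2 had 341 counts over all libraries against 3038 for FADS1, so FADS2 reads may include reads of its neighbour. FADS2 also shares 49 exon bases on the same strand with FEN1, which had 26601 counts.

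Among the elongases, both were called lower between 80 µM and 40 µM. ELOVL6, which extends palmitate to stearate, ranged from 10.5 to 13.0 CPM in the control, 11.9 to 14.1 CPM at 40 µM and 6.08 to 10.4 CPM at 80 µM. It was called lower against control (log2 fold change -0.55 ± 0.20, adjusted p = 0.0498) and against 40 µM (-0.70 ± 0.20, adjusted p = 0.0268). The call against control was lost with RLE size factors, with total count scaling, and without control library 1 or 2, any 1 40 µM library, or 80 µM library 2 or 3 (log2 fold changes -0.56 to -0.37, adjusted p 0.0553 to 0.178 over these settings). ELOVL5, which extends polyunsaturated fatty acids, was the 1 branch gene not called against control (log2 fold change -0.21 ± 0.11, adjusted p = 0.179).

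In the sterol branch 8 of 18 genes fell at 80 µM against control, where 17.5% of all genes tested were called lower, and 1 rose, where 17.4% were called higher. The branch's median log2 fold change was -0.29, and single genes ran from -1.25 for DHCR7 to 0.81 for SC5D, which was not called. The 18 genes summed to 677 ± 17.3 CPM at 80 µM, against 867 ± 13.4 CPM in the control (SD, n = 3 each), which is 78.1% of the control sum. The count of 8 was 5 without 80 µM library 2 or 3. At 40 µM DHCR7 was called lower and HMGCS1 higher, and the branch summed to 846 ± 30.03 CPM, which is 97.6% of the control sum.

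Of the 6 genes of the mevalonate and isoprenoid steps, 4 fell and 1 rose at 80 µM. HMGCS1 (ENSG00000112972, chromosome 5, 43289395 to 43313512 on the reverse strand) had 56.6, 63.2 and 52.2 CPM in the control, 76.3, 91.8 and 79.2 CPM at 40 µM and 74.3, 76.0 and 71.7 CPM at 80 µM. Both doses lay above all control libraries, and the lowest 40 µM library stood just above the highest 80 µM library. Its log2 fold change was 0.52 ± 0.11 at 40 µM (adjusted p = 0.044) and 0.37 ± 0.11 at 80 µM (adjusted p = 0.0291). The call at 40 µM was lost without control library 1 or 3, 40 µM library 2 or 3, or any 1 80 µM library (log2 fold changes 0.43 to 0.56, adjusted p 0.0676 to 0.16), and with total count scaling (0.0605). The call at 80 µM was lost without control library 1 or 3 or any 1 80 µM library (log2 fold changes 0.29 to 0.41, adjusted p 0.0509 to 0.087).

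PMVK, the phosphomevalonate kinase, had 81.1, 75.9 and 97.1 CPM in the control, 83.4, 51.6 and 51.3 CPM at 40 µM and 37.2, 46.6 and 52.3 CPM at 80 µM. Control and 80 µM did not overlap, and 40 µM library 1 stood with the control while the other 40 µM libraries stood with 80 µM. At 80 µM the log2 fold change was -0.90 ± 0.21 (adjusted p = 0.00684). In the authors' deposited FPKM, whose gene lengths are not given, PMVK was the most abundant member per length in the control, at 84.0 ± 6.98 (SD, n = 3).

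MVD, which decarboxylates mevalonate pyrophosphate to isopentenyl pyrophosphate, had 19.6, 18.4 and 23.9 CPM in the control, 19.4, 12.4 and 16.5 CPM at 40 µM and 14.5, 13.5 and 11.6 CPM at 80 µM. Control and 80 µM did not overlap, and its log2 fold change was -0.64 ± 0.18 (adjusted p = 0.0198). The call was lost without control library 3 or 80 µM library 2 or 3 (log2 fold changes -0.65 to -0.54, adjusted p 0.0573 to 0.0821). FDPS, which joins isoprenoid units into farnesyl pyrophosphate, was called lower at 80 µM (log2 fold change -0.62 ± 0.10, adjusted p = 0.00104). FDPS shares 693 exon bases with an antisense gene, RUSC1-AS1, which had 1335 counts over all libraries against 14484 for FDPS. GENCODE 29 also lists pseudogene copies of FDPS, CYP51A1, HSD17B7 and SCD, and reads that match a copy are uncertain for these genes.

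IDI1, the isomerase that supplies dimethylallyl pyrophosphate, was not called at 40 µM and fell at 80 µM. It ranged from 67.1 to 81.8 CPM in the control, 74.5 to 96.2 CPM at 40 µM and 47.9 to 59.1 CPM at 80 µM. On the log2 scale it changed by 0.15 ± 0.14 at 40 µM (adjusted p = 0.581), -0.55 ± 0.14 at 80 µM (adjusted p = 0.0115) and -0.69 ± 0.14 between the doses (adjusted p = 0.00619). The call against control was lost without control library 1 or 80 µM library 2 or 3 (log2 fold changes -0.49 to -0.48, adjusted p 0.0509 to 0.0551). MVK, the mevalonate kinase, was not called in any comparison, and its 80 µM libraries, at 20.5 to 21.0 CPM, lay within the control range of 18.6 to 25.4 CPM.

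Of the 11 genes from squalene to cholesterol, 4 fell at 80 µM, none rose and 7 were not called. DHCR7 (ENSG00000172893, chromosome 11, 71428193 to 71452868 on the reverse strand), which makes cholesterol from its last precursor, had 89.3, 76.8 and 82.8 CPM in the control, 62.7, 53.0 and 57.6 CPM at 40 µM and 34.9, 33.8 and 35.8 CPM at 80 µM. The doses did not overlap. The fitted log2 fold change was -0.52 ± 0.11 at 40 µM (adjusted p = 0.0351), -1.25 ± 0.11 at 80 µM (adjusted p = 2.73e-05) and -0.73 ± 0.11 between the doses (adjusted p = 0.00148). The call at 40 µM was lost without control library 1 or 3, 40 µM library 2 or 3, or any 1 80 µM library (log2 fold changes -0.55 to -0.46, adjusted p 0.0594 to 0.145), and both other calls held in all 16 alternatives.

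LSS, which closes the sterol rings to form lanosterol, had 38.0, 32.6 and 44.4 CPM in the control, 31.2, 21.3 and 27.0 CPM at 40 µM and 18.1, 19.2 and 19.7 CPM at 80 µM. The doses did not overlap, and its log2 fold change was -1.01 ± 0.16 at 80 µM (adjusted p = 0.00101). LSS was not called at 40 µM against control (adjusted p = 0.117) or between the doses (adjusted p = 0.058). NSDHL, which removes the methyl groups at carbon 4 together with MSMO1, had 35.5, 35.1 and 42.1 CPM in the control, 36.2, 30.2 and 36.7 CPM at 40 µM and 24.8, 21.0 and 22.2 CPM at 80 µM. Control and 40 µM overlapped, 80 µM lay below both, and its log2 fold change was -0.73 ± 0.13 (adjusted p = 0.00187). FDFT1, the squalene synthase, was the 4th gene called (log2 fold change -0.37 ± 0.13, adjusted p = 0.0407). Its call was lost without any 1 control library, without 40 µM library 3, and without any 1 80 µM library (log2 fold changes -0.42 to -0.31, adjusted p 0.0555 to 0.14).

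SQLE, the squalene epoxidase, missed the threshold against control (log2 fold change -0.41 ± 0.17, adjusted p = 0.0947) and was called without 80 µM library 1 (-0.57, adjusted p = 0.039). CYP51A1, the lanosterol demethylase, and MSMO1, whose promoter stretch above holds a TCACNNCA match, had log2 fold changes at 80 µM of 0.13 ± 0.10 and -0.01 ± 0.11. Their 95% intervals ran from -0.09 to 0.36 for CYP51A1 and from -0.25 to 0.22 for MSMO1. TM7SF2, HSD17B7 and EBP, which act on later ring double bonds and ketones, lay between -0.21 and -0.00. TM7SF2 had 819 counts over all libraries and shares 16 exon bases with VPS51, which had 28791, so its level is uncertain. SC5D, the desaturase that acts before DHCR7, had 15.4, 5.58 and 4.52 CPM in the control, and control library 1 stood apart from the other controls. The log2 fold change of SC5D at 80 µM was 0.81 ± 0.44 (adjusted p = 0.183), and 1.58 without control library 1 (adjusted p = 0.0116). STARD4, a cytosolic cholesterol carrier and the branch's 1 transport gene, was not called (0.21 ± 0.21, adjusted p = 0.478).

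**Figure D4:**
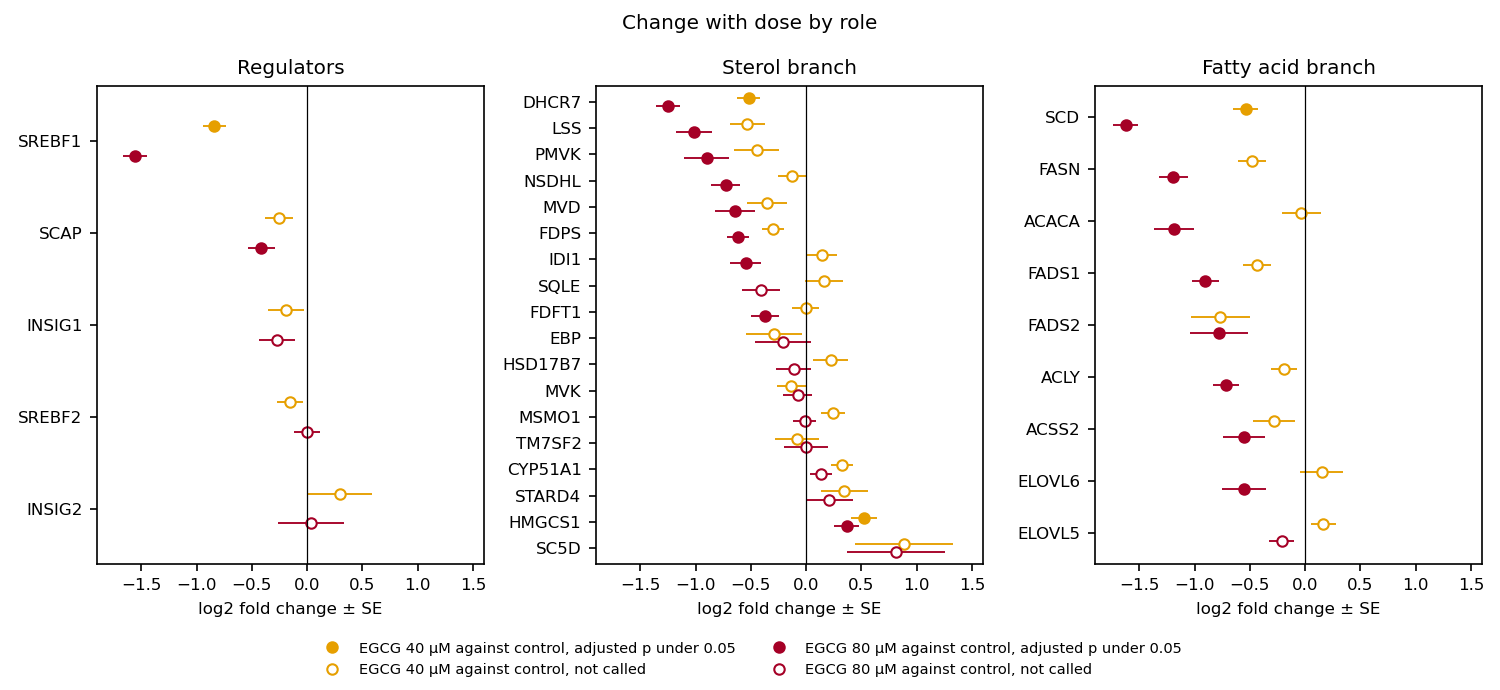
log2 fold change ± SE (horizontal axis) of each member at 40 µM (orange) and 80 µM (dark red) against control, by role and ordered by the change at 80 µM; filled points have an edgeR adjusted p under 0.05 and open points do not. At 80 µM filled points stand to the left of 0 for 8 of 9 fatty acid genes and 8 of 18 sterol genes, and to the right for HMGCS1.

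The median of the fatty acid branch lay below that of the sterol branch at both doses. The median log2 fold change of the fatty acid genes minus that of the sterol genes was -0.49 at 80 µM against control, -0.23 at 40 µM against control and -0.23 at 80 µM against 40 µM. The 2 differences from control share the control libraries. Taken library by library, as medians of log2 CPM minus each gene's control mean, the same difference was -0.08, -0.04 and 0.12 in control libraries, -0.30, -0.28 and -0.20 in 40 µM libraries and -0.66, -0.56 and -0.55 in 80 µM libraries. The 3 doses did not overlap, and the SD within a dose was 0.08. The members were chosen by function with earlier results known, so the difference is given as a description without a p. It depended on which genes were counted: at 80 µM it was -0.61 without ACLY and ACSS2, whose acetyl-CoA feeds both branches, and -0.41 without STARD4. Within the sterol branch, the 6 mevalonate and isoprenoid genes had median log2 fold changes of -0.22 at 40 µM and -0.58 at 80 µM. The 11 genes from squalene to cholesterol had medians of -0.00 and -0.21, and the fatty acid branch had -0.28 and -0.78. With 1 library left out the difference between the branch medians ran from -0.64 (without 80 µM library 2) to -0.36 (without control library 3) at 80 µM.

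**Figure D5:**
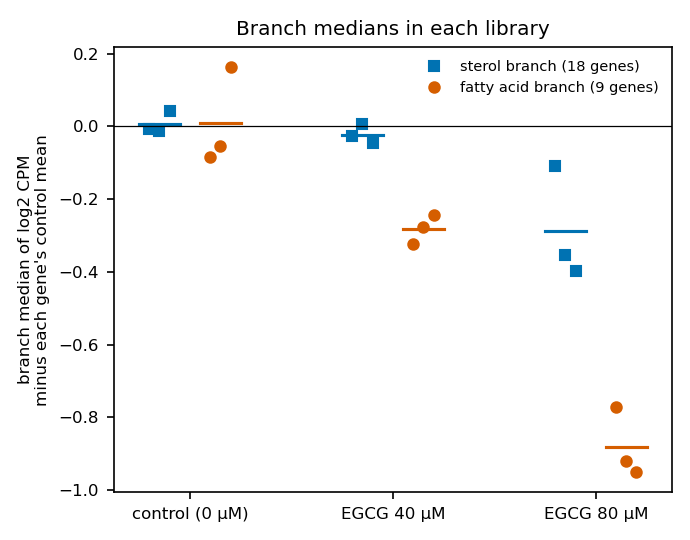
Median over the genes of each branch of log2 CPM minus the gene's control mean (vertical axis) in each library, by dose (horizontal axis); blue squares are the 18 sterol genes, orange circles the 9 fatty acid genes, and lines are means over 3 libraries. The fatty acid medians average -0.28 at 40 µM and -0.88 at 80 µM, and the sterol medians -0.02 and -0.29.

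Between 80 µM and 40 µM all 13 called members were lower. They were SREBF1, 7 fatty acid genes (ACLY, ACACA, FASN, SCD, FADS1, ELOVL5 and ELOVL6) and 5 sterol genes (IDI1, FDPS, SQLE, NSDHL and DHCR7), where 12.1% of all genes tested were called lower. The median log2 fold change was -0.53 in the fatty acid branch and -0.30 in the sterol branch, against -0.01 over all genes tested. Of these 13 calls 8 held in all 16 alternatives. The fatty acid branch's 7 became 4 without 80 µM library 2 or 3, and the sterol branch's 5 became 3 without control library 1, 40 µM library 3, or 80 µM library 2 or 3. ELOVL5 lost its call without control library 1 or 2, 40 µM library 1 or 2, or 80 µM library 2 or 3 (adjusted p 0.0524 to 0.163), and ELOVL6 without 40 µM library 2 or 3 or 80 µM library 2 or 3 (0.0747 to 0.0963). FADS1 lost its call without 40 µM library 1 or 3 or 80 µM library 2 or 3 (0.0564 to 0.0967), FDPS without control library 1 or any 1 EGCG library (0.0619 to 0.146), and SQLE without control library 1 or 2, 40 µM library 2 or 3, or 80 µM library 2 or 3 (0.0502 to 0.15). On all libraries FDPS also lost its call with RLE size factors (0.0515), total count scaling (0.0526) and a replicate block (0.0771). ELOVL5 lost its call with total count scaling (0.0602). SQLE lost its call with a replicate block (0.0654) and with the 6 compared libraries alone (0.0596).

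Whether the second dose step differed from the first was tested as a contrast, 80 µM minus 40 µM against 40 µM minus control. edgeR called 0 of 32 members, where 0.294% of all genes tested were called. An unadjusted p under 0.05 was reached by 9 of the 32 members and by 3017 of the 15982 genes tested. limma-voom also called 0 members and DESeq2 called 1, IDI1 (log2 difference -0.82, adjusted p = 0.0487), each with the same 9 members at an unadjusted p under 0.05. Of the 15982 genes tested, DESeq2 called 705 for this contrast, limma-voom 46 and edgeR 47. The 9 were HMGCS1, IDI1, SQLE, CYP51A1, MSMO1, ACACA, SCD, ELOVL5 and ELOVL6, and all of them had a negative difference, that is a change more downward in the second step. The largest was for ACACA at -1.12 ± 0.30 (edgeR adjusted p = 0.102). Of all 32 members 21 had a negative difference, where 8301 of the 15982 genes tested had one. The 40 µM libraries enter both steps. Among them, 40 µM library 2, which stood apart on the second principal component, was the highest for HMGCS1, IDI1, SQLE, MSMO1, SCD and ELOVL5. It was not the highest for CYP51A1, ACACA and ELOVL6. For SREBF1 the difference was 0.12 ± 0.19, with a 95% interval from -0.30 to 0.53.

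Neighbouring parts of lipid metabolism were described from further lists. Of 9 tested genes for SREBP proteases, ER retention and turnover, 1 rose (11.1%) and none fell at 80 µM. Of all genes tested, 17.4% were called higher and 17.5% lower. The gene that rose was ERLIN2, part of an ER complex that binds cholesterol and restrains SREBPs (log2 fold change 0.47 ± 0.13, adjusted p = 0.0169). That call was lost without control library 3 (0.37, adjusted p = 0.0614) or 80 µM library 1 (0.39, adjusted p = 0.066). The site-2 protease MBTPS2 and the ubiquitin ligase RNF139 had log2 fold changes at 80 µM of 0.04 ± 0.15 and 0.40 ± 0.14 and were not called (adjusted p = 0.85 and 0.0511). RNF139 was called higher on all libraries with RLE size factors (adjusted p = 0.0473), total count scaling (0.0406), DESeq2 (0.0405) and limma-voom (0.0486). It was also called without control library 2 (0.0328), 40 µM library 2 (0.0451) or 80 µM library 3 (0.0491). PAQR3, which tethers SCAP to the Golgi, was the gene of this list with the smallest p at 40 µM and was not called with edgeR (log2 fold change 1.00 ± 0.27, adjusted p = 0.088) but was with DESeq2 (adjusted p = 0.0112).

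Of 22 tested genes of other lipogenesis, 4 rose (18.2%) and 7 fell (31.8%) at 80 µM, against 17.4% higher and 17.5% lower of all genes tested, with a median log2 fold change of -0.00. ME1, the malic enzyme that supplies NADPH, was higher at both doses, with 34.4, 36.6 and 31.5 CPM in the control, 47.8, 64.3 and 56.0 CPM at 40 µM and 79.0, 70.5 and 76.2 CPM at 80 µM. The doses did not overlap, and its log2 fold change was 0.71 ± 0.13 at 40 µM (adjusted p = 0.0205) and 1.14 ± 0.13 at 80 µM (adjusted p = 0.000131). The call at 40 µM was lost without control library 1 or 3 or 40 µM library 2 or 3 (log2 fold changes 0.59 to 0.72, adjusted p 0.0671 to 0.079). SCD5, a second stearoyl-CoA desaturase, fell at 80 µM (log2 fold change -1.05 ± 0.13, adjusted p = 0.000238). It had 7.36, 8.03 and 6.78 CPM at 80 µM, against 15.5, 14.9 and 15.6 CPM in the control, with no overlap.

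Of 14 tested genes that use isoprenoids for products other than sterols, 2 rose (14.3%) and 3 fell (21.4%) at 80 µM, close to the 17.4% and 17.5% of all genes tested. PDSS1, which builds the side chain of coenzyme Q, fell by 1.07 ± 0.14 on the log2 scale (adjusted p = 0.00028), and DOLK, the dolichol kinase, fell by 0.72 ± 0.13 (adjusted p = 0.0015). GGPS1 was called higher at 80 µM, and its call held in all 16 alternatives (log2 fold changes 0.67 to 1.02). Of 15 tested genes of fatty acid oxidation, 2 rose (13.3%) and 3 fell (20%) at 80 µM, also close to those shares, with a median log2 fold change of -0.04. PPARGC1A, a coactivator of oxidative metabolism, rose (log2 fold change 1.40 ± 0.17, adjusted p = 0.000196). It had 44.3, 39.7 and 35.8 CPM at 80 µM, against 14.8, 18.9 and 11.6 CPM in the control. ACADVL, which opens the oxidation of long-chain fatty acids, fell (log2 fold change -0.58 ± 0.16, adjusted p = 0.0182), and lost its call without control library 3 or 80 µM library 1 or 2 (-0.55 to -0.48, adjusted p 0.0622 to 0.0644). At 40 µM none of the genes of these last 2 lists was called with edgeR on all libraries. PPARGC1A was called higher at 40 µM without control library 2 (log2 fold change 0.79, adjusted p = 0.0455) and with DESeq2 (0.59, adjusted p = 0.0392).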

How the data were processed

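RNA-seq of 9 MM.1S libraries (0, 40 or 80 µM EGCG, 24 h, 3 each) was analysed from 1 table deposited by the authors. The table holds a deposited raw count for each gene and library, as whole numbers, per the file headers. The deposited FPKM values, scaled by the authors for gene length and library size, were used only to give and rank levels of members, and in no test. The gene lengths behind them were not given in the sources used here, so ranks between members depend on unstated lengths. Per the submitters' processing notes, which give no order, GRCh38, CASAVA 1.8, SAMtools 1.3.1, HISAT2 and edgeR were used. No counting program, annotation release or strand setting was given in the sources used here. Of 60675 IDs, 60419 had a symbol.

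Genes were filtered with filterByExpr (minimum count 10, minimum total 15), which kept 15982 genes and 99.71 to 99.83% of counts, and scaled by TMM (0.945 to 1.03). edgeR 4.0.16 in R 4.3.3 fitted dose to all 9 libraries (6 residual degrees of freedom) with quasi-likelihood tests and Benjamini-Hochberg adjustment over all genes tested. Standard errors are the log2 fold change over the square root of F, and intervals are 95%. Chi-square per degree of freedom between libraries of a dose was 12.7 to 33.2, so none repeats another within sampling noise. The scripts were tested on simulated counts. DESeq2 1.42.0 and limma 3.58.1 were alternatives. A further marker list, whose summed level was lower at each higher dose, is not reported here.

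The members and lists were chosen with earlier results of these data known. CPM in each library is given for the 12 called members with the largest change at 80 µM and the 5 regulators. HMGCS1 (all libraries) and SC5D (control libraries) were added after their values were seen. From further lists, the 2 genes with the smallest p at each dose may be named.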

Additional observations from a re-analysis of the deposited data

How the results depend on the processing

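Counts of called members were recomputed with RLE size factors, total count scaling, no filter on low counts, DESeq2, limma-voom, the 6 compared libraries alone, a replicate block, and each library left out, and no direction of a called member turned. At 40 µM the 4 calls became 1 without the filter and 1 with the 6 libraries alone, and with 1 library left out they ran from 1 to 3. At 80 µM against control the 19 calls ran from 11 to 17 with 1 library left out. The 8 falls of the fatty acid branch became 5 without the filter and 5 with the 6 libraries alone (5 to 7 with 1 library left out), and the 8 of the sterol branch ran from 5 to 8. Between the doses 13 calls became 8 without the filter (8 to 14), the fatty acid branch's 7 became 4 (4 to 7) and the sterol branch's 5 became 3 (3 to 6). For the difference of dose steps, edgeR's 0 became 1 with DESeq2, against 0 with limma-voom and 0 with any 1 library left out; over all genes tested DESeq2 called 705, edgeR 47 and limma-voom 46. By gene, SCD, DHCR7 and HMGCS1 lost their calls at 40 µM without the filter (adjusted p 0.0586 to 0.089), with the 6 libraries alone (0.0841 to 0.128) and with the block (0.0643 to 0.0755). ACSS2, ELOVL6, FADS2, FDFT1 and HMGCS1 lost theirs at 80 µM without the filter (0.0726 to 0.101), and ELOVL5, ELOVL6, FADS1, FDPS and SQLE theirs between the doses (0.0545 to 0.089). Leaving out libraries leaves fewer degrees of freedom for all genes.

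Fatty acid minus sterol medians ran from -0.32 to -0.21 at 40 µM, from -0.64 to -0.36 at 80 µM and from -0.32 to -0.20 between the doses with 1 library left out. Without ACLY and ACSS2 they were -0.39, -0.61 and -0.40, and without STARD4 the value at 80 µM was -0.41. A replicate block was fitted although the labels do not say that equal numbers mark a pairing. The 9 correlations of same-numbered libraries ran from -0.14 to 0.05, none above 0.1, so the numbers were not taken as pairs. With the block 1 member was called at 40 µM, 16 at 80 µM against control and 11 between the doses, with 3 sterol genes lower between the doses, and the branch differences were -0.23, -0.46 and -0.24. FADS2, at under 5 CPM, had 341 counts over all libraries, which limits its precision.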

Other observations

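Sterol handling outside the synthesis branches went in both directions. Of 19 tested genes, 5 rose (26.3%) and 6 fell (31.6%) at 80 µM, against 17.4% and 17.5% of all genes tested. At 40 µM 2 fell, against 0.813% of all genes tested. MYLIP, a ubiquitin ligase that lowers lipoprotein receptors and a textbook target of the liver X receptors, had 37.4, 35.3 and 36.1 CPM in the control, 21.5, 18.9 and 20.6 CPM at 40 µM and 11.1, 11.8 and 11.2 CPM at 80 µM. The doses did not overlap, and its log2 fold change was -0.84 ± 0.11 at 40 µM (edgeR adjusted p = 0.00386) and -1.67 ± 0.11 at 80 µM (adjusted p = 5.91e-06). SCARB1, a receptor for high-density lipoprotein, had 50.5, 51.0 and 63.2 CPM in the control, 30.02, 30.9 and 31.5 CPM at 40 µM and 18.1, 19.2 and 17.8 CPM at 80 µM, with log2 fold changes of -0.83 ± 0.12 (adjusted p = 0.00562) and -1.58 ± 0.12 (adjusted p = 1.32e-05). Both calls of each gene held in all 16 alternatives.

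The genes of this paragraph were chosen after their values were seen. SREBF1, SCD and FASN are also known as targets of these receptors, and whether the receptors took part in any of these changes was not tested. ABCG1, a sterol exporter, had 1.34, 1.02 and 1.33 CPM at 80 µM, against 3.51, 4.69 and 5.05 CPM in the control (log2 fold change -1.84 ± 0.30, adjusted p = 0.00102). At 40 µM ABCG1 was not called with edgeR (-1.20 ± 0.28, adjusted p = 0.0584) but was with DESeq2 (0.0193), limma-voom (0.0494) and total count scaling (0.0493), and without 40 µM library 2 (0.0412). LPCAT3, which builds polyunsaturated phospholipids, fell by 1.31 ± 0.12 on the log2 scale (adjusted p = 3.81e-05). ABCA1, the second exporter, stayed at 1.27 to 1.86 CPM at 80 µM, against 1.12 to 2.16 CPM in the control, and was not called. The receptor gene NR1H2 was higher, with 112, 105 and 113 CPM at 80 µM, against 76.9, 65.2 and 84.8 CPM in the control (log2 fold change 0.54 ± 0.12, adjusted p = 0.00503). NR1H3, the other receptor gene, was not called at 80 µM. RXRA was called higher at 80 µM, and lost its call in 5 of 16 alternatives. OSBP, an oxysterol-binding protein that moves cholesterol to the Golgi, had 173, 179.8 and 176 CPM at 80 µM, against 85.6, 85.5 and 91.9 CPM in the control (1.01 ± 0.09, adjusted p = 2.35e-05).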
